A study of Homo sapiens with 45 samples.

Results

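H3K9me3 and H3K27me3 domains were compared in control cells of HCT116, a human colorectal carcinoma line of epithelial character. The cells had received a nontargeting siRNA at 25 nM for 72 hours. Chromatin immunoprecipitation was done on 3 H3K9me3 libraries (Abcam antibody) and 2 H3K27me3 libraries (Cell Signaling Technology antibody), 5 of the 45 samples of the series. The authors deposited 1 list of domains per antibody and siRNA, so every value on a list has no replicate and no test, and the read depth behind it is unknown. All domains of both control lists were used, with no selection: 895 for H3K9me3 and 1772 for H3K27me3, together 2667 of the 8560 domains in the 7 deposited lists. The control lists of H3K9me2 (601 domains) and of lamin B1 (880 domains), a protein of the nuclear lamina, served as the nearest comparisons, each from 3 libraries. RNA came from 4 libraries of control cells and 4 of cells given an siRNA against HNRNPK, an RNA-binding protein, at the same concentration and time. Nothing in the labels says that libraries of one group came from separate cultures, so the spread between them may be technical.

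H3K9me3, trimethylated lysine 9 of histone H3, is laid down by SUV39H and SETDB enzymes and bound by HP1 proteins. It is known for compact, late-replicating chromatin at repeats, at the nuclear lamina and over clusters of KRAB zinc finger genes. H3K27me3 is laid down by EZH2 or EZH1 in Polycomb repressive complex 2 and is known for holding developmental regulators silent. Both marks lie over repressed genes, and the comparison asks whether they occupy separate parts of the genome, where they meet and which genes each one covers.

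Promoter sequences of genes under each mark are shown first. A promoter is here the RefSeq window of 300 bases, from 250 before to 50 after a listed transcription start of the gene, which need not be its outermost, on GRCh38.p14. The 5 windows below are shown because they stand for the groups described later: a Polycomb-type start, a zinc finger start and an odorant receptor start under H3K9me3, and 2 promoters from the longest doubly marked segments. Capitals mark each CG dinucleotide, the site of DNA methylation. HOXC4 (chr12:54016638-54016937, plus strand) lies under H3K27me3 alone and has 15 CG. ZNF583 (chr19:56403764-56404063, plus strand) lies under H3K9me3 alone and has 23. OR4C13 (chr11:49952141-49952440, plus strand) lies under H3K9me3 alone and has 1. INHBA (chr7:41703041-41703340, minus strand) has 1 and MEIS1 (chr2:66434875-66435174, plus strand) has 18, both under both marks.
HOXC4: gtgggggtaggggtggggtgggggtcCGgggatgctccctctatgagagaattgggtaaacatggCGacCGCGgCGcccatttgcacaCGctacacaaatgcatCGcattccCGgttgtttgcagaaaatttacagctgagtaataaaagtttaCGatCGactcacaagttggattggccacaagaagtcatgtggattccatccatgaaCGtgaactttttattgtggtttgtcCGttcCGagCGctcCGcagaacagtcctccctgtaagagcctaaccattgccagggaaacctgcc
ZNF583: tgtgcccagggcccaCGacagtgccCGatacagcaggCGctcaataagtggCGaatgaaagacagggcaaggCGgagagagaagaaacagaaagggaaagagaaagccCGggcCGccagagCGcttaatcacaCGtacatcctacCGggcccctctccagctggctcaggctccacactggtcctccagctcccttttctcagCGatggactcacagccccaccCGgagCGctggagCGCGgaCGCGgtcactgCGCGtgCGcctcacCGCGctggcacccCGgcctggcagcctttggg
OR4C13: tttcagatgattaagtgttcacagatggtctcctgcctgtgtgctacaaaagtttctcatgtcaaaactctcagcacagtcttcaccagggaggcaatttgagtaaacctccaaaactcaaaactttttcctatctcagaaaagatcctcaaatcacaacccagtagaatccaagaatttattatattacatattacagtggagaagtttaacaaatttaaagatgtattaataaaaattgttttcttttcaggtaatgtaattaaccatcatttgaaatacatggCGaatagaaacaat
INHBA: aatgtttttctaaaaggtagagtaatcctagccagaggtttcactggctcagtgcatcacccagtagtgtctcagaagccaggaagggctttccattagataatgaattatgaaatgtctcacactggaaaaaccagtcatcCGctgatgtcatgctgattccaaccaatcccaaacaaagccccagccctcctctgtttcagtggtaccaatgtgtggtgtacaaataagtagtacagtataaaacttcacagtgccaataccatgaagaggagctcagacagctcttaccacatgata
MEIS1: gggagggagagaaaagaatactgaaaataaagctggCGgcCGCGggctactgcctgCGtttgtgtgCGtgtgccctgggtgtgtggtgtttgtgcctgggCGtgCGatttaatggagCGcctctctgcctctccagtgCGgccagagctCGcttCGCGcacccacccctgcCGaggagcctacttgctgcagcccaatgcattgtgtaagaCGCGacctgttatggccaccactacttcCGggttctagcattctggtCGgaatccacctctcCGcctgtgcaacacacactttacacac

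The marks differed in how their length was packed. H3K9me3 covered 657.2 Mb, 21.3% of the assembled genome, and H3K27me3 covered 821.9 Mb, 26.6%. H3K9me3 domains were of very unequal size: the median width was 160 kb (quartiles 85 and 782.5 kb, range 65 to 13965 kb). Domains of at least 1 Mb numbered 190 and held 75.8% of the H3K9me3 length, while the 491 domains under 200 kb held 7.60%. H3K27me3 domains were more even, with a median of 325 kb (quartiles 185 and 605 kb, range 95 to 2820 kb). Only 172 of them reached 1 Mb, and these held 29.8% of the H3K27me3 length. The widest 79 H3K9me3 domains (8.83% of the list) held 50% of its length, against 379 domains (21.4%) for H3K27me3.

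**Figure D1:**
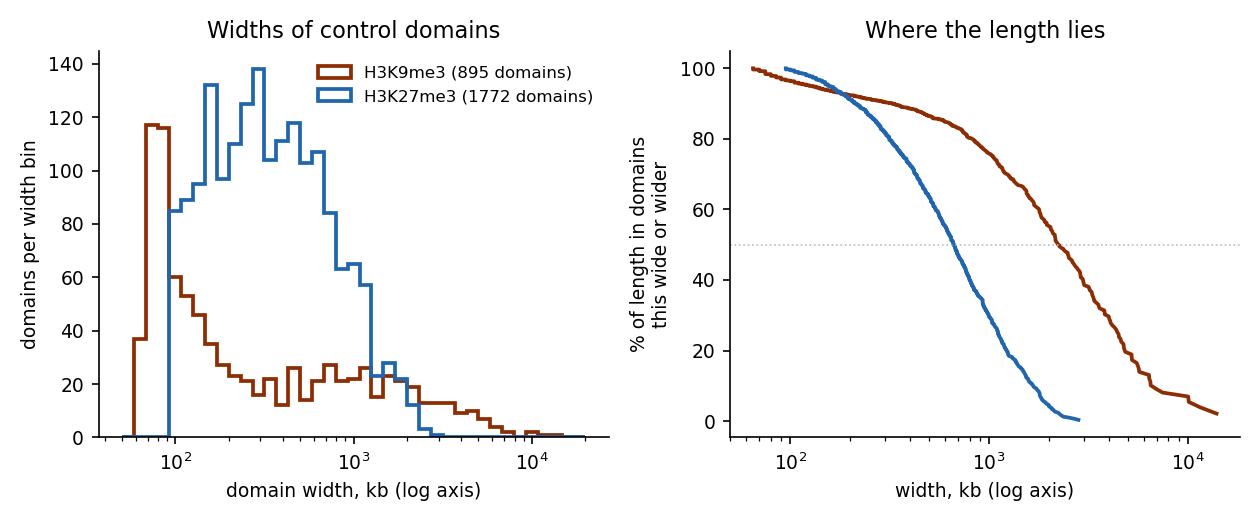
Left, number of domains per width bin (x axis, width in kb on a log scale) for control H3K9me3 (brown) and control H3K27me3 (blue). Right, percent of each mark's length held by domains of at least the width on the x axis, with a dotted line at 50%; the H3K9me3 curve lies to the right because 75.8% of its length is in domains of at least 1 Mb, against 29.8% for H3K27me3.

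The marks shared little sequence. Both covered 89.5 Mb, or 2.90% of the genome, which is 13.6% of the H3K9me3 length and 10.9% of the H3K27me3 length. Multiplying the 2 coverages gives 174.9 Mb, so the shared length was 0.51 of that product (the overlap ratio below, where 1 means as much sharing as the coverages alone give). The same ratio was 1.16 for H3K9me2 with H3K27me3 and 1.58 for lamin B1 with H3K27me3, although H3K9me2 overlapped 83.4% and lamin B1 84.1% of the H3K9me3 length (78.4% and 59.9% of their own). In windows of 1 Mb the separation was sharper. Of 3078 windows, 582 were covered for at least 50% by H3K9me3 and 738 by H3K27me3, and 53 by both. Among the 363 windows with at least 90% H3K9me3, 289 held no H3K27me3 at all.

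The separation was not uniform over the chromosomes. The overlap ratio was below 1 on 21 of 24 chromosomes. It was lowest on chromosome X, at 0.057, where H3K9me3 covered 32.1% and H3K27me3 27.7% of the chromosome and both marks 0.51%. Chromosome 11, at 0.14, and chromosome 21, at 0.18, came next. Chromosomes 1, 17 and 22 were the exceptions, with ratios of 1.16, 1.12 and 1.41, and on them 31.4%, 29.9% and 28.9% of the H3K9me3 length was also under H3K27me3.

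**Figure D2:**
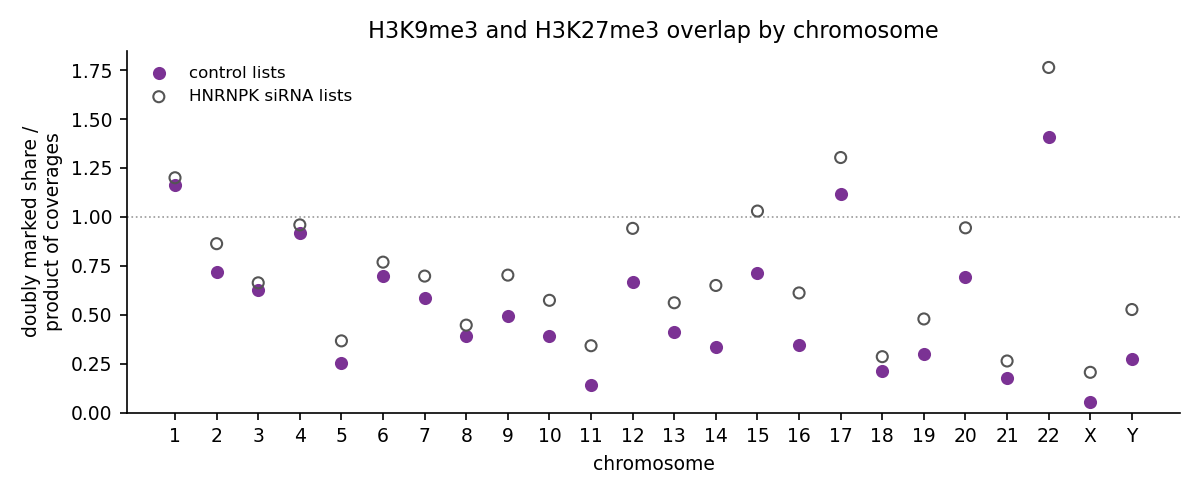
Overlap ratio (doubly marked share of the chromosome divided by the product of the 2 coverages, y axis) for each chromosome (x axis) in the control lists (filled) and the HNRNPK siRNA lists (open), with a dotted line at 1. Of the control values, 21 of 24 lie under the line, with chromosomes 1, 17 and 22 above it and chromosome X lowest at 0.057.

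How much of a domain was doubly marked depended on its width and its score. The score is the authors' own value per domain, used here only to rank domains within a list. Of the 895 H3K9me3 domains, 458 held no H3K27me3, 295 were covered in part and 142 lay wholly inside H3K27me3. Domains of at least 1 Mb had 7.88% of their length under H3K27me3. The share was 34.4% for domains of 200 kb to 1 Mb and 25.5% for those under 200 kb. H3K27me3 covered 26.6% of the genome, so by width only the domains of at least 1 Mb lay clearly below that value. The H3K9me3 list was also cut by rising score into 4 groups of near equal number. The share under H3K27me3 was 42.8%, 39.2%, 17.1% and 7.61%, above the genome value in the lower groups and below it in the higher. The same 4 groups of the H3K27me3 list gave 13.4%, 11.8%, 14.6% and 7.02%, with no steady trend over the first 3. Width and score move together in the H3K9me3 list (median width 87.5 kb in the lowest group and 1417.5 kb in the highest), so their parts cannot be told apart here. H3K9me3 domains under 200 kb also stood apart in where they lay: lamin B1 covered 13.5% and H3K9me2 6.75% of their length, against 93.1% and 94.7% for domains of at least 1 Mb.

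The edges of the broad H3K9me3 domains lay inside H3K27me3. An edge is counted as crossed when H3K27me3 covers the 5 kb bins on both sides of it. Of the 380 edges of H3K9me3 domains of at least 1 Mb, 273 were crossed (71.8%, 95% Wilson interval 67.1 to 76.1, counting error over edges only), 4 had H3K27me3 on the outer side only, 0 on the inner side only, and 103 had none. At edges of domains under 200 kb the crossed share was 24.1%, close to the 26.6% of the genome that H3K27me3 covers. Exact abutment was rare: 20 of all 1787 H3K9me3 edges fell at the position of an H3K27me3 edge, and 203 (11.4%) lay within 25 kb of one. Of the 190 broad domains, 111 had H3K27me3 in the bin just outside both edges, 55 outside 1 edge and 24 outside neither.

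The profile across these edges showed a rim rather than a line. Outside domains of at least 1 Mb, H3K27me3 covered 32.8% of positions at 497.5 kb, 52.1% at 247.5 kb and 78.6% at 97.5 kb, and it was highest, at 81.0%, 42.5 kb outside the edge. It was 71.8% at 2.5 kb inside, 41.6% at 52.5 kb and 25.3% at 97.5 kb. Deep inside it fell to 10.3% at 247.5 kb and 6.05% at 497.5 kb. Where H3K27me3 crossed an edge without covering the whole domain, which happened at 265 edges, it reached a median of 60 kb into the H3K9me3 domain (quartiles 30 and 125 kb). As a result, 45.2% of the length within 100 kb of an edge was doubly marked, 10.6% of the length 100 to 500 kb from it, and 1.95% of the length farther in.

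H3K9me2 and lamin B1 domains of at least 1 Mb had the same kind of H3K27me3 rim, placed differently. Around H3K9me2 edges coverage by H3K27me3 was 80.8% at 12.5 kb outside, 81.2% at 2.5 kb inside and still 61.1% at 97.5 kb inside. Around lamin B1 edges it was 43.5% at 97.5 kb outside and 78.2% at 52.5 kb inside. The highest coverage thus lay outside the H3K9me3 edge, at the H3K9me2 edge, and inside the lamin B1 edge. Seen from the other mark, broad domains had no such rim: at edges of H3K27me3 domains of at least 1 Mb, H3K9me3 covered 8.77% of positions 2.5 kb to either side. At edges of H3K27me3 domains of 200 kb to 1 Mb, H3K9me3 coverage fell inward without a peak at the edge. It was 21.3% at 497.5 kb outside, 16.7% at 2.5 kb outside and 9.24% at 97.5 kb inside.

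**Figure D3:**
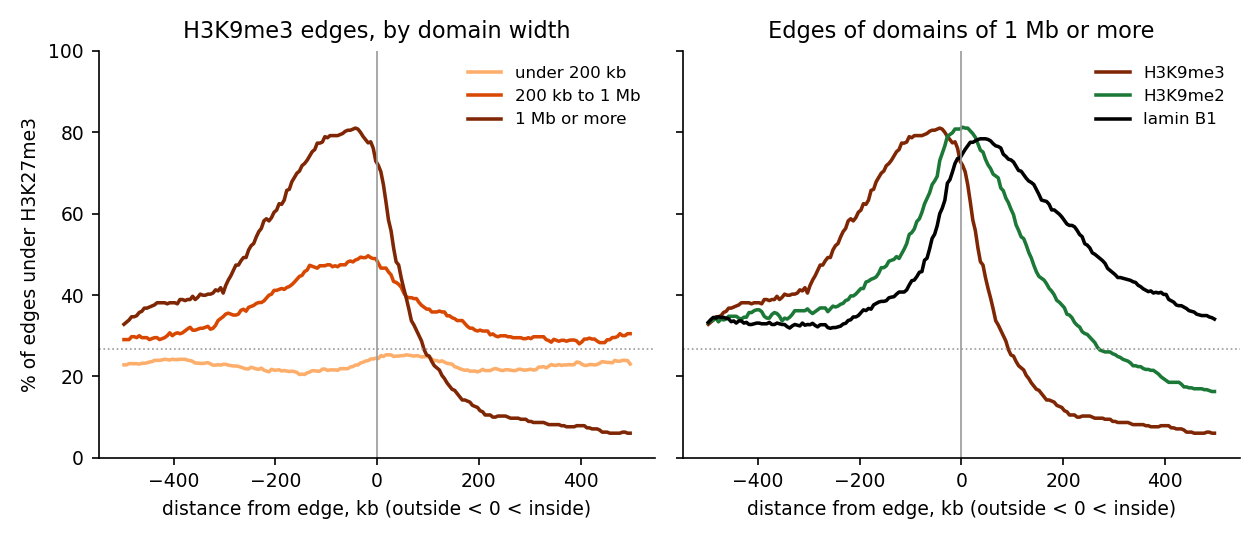
Percent of domain edges with H3K27me3 (y axis) at each distance from the edge in kb (x axis, negative outside the domain and positive inside); the dotted line is the genome coverage of H3K27me3, 26.6%. Left, H3K9me3 domains by width class, where only the 2 wider classes rise near the edge; right, domains of at least 1 Mb of H3K9me3, H3K9me2 and lamin B1, whose H3K27me3 peaks lie outside, at and inside the edge.

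Named junctions show the scale of the contact. In 146 cases an H3K27me3 domain that extended outward from an H3K9me3 edge ended within 25 kb of it, 88 with a short overlap, 43 with a gap and 15 at the same position. A protein-coding gene ran past both edges by over 5 kb at 31 of these junctions (21.2%). On chromosome 10 an H3K9me3 domain of 4625 kb and an H3K27me3 domain of 765 kb overlapped by 15 kb inside SORCS3, a sorting receptor of neurons, whose 624 kb body was 28.9% under H3K9me3 and 73.5% under H3K27me3. On chromosome 5 a gap of 5 kb between an H3K9me3 domain of 3800 kb and an H3K27me3 domain of 745 kb fell inside TENM2, a teneurin adhesion protein of 1285 kb, with 41.7% and 57.9% of its body under the respective marks. SORCS3 had no read in any control library, which allows up to 0.127 to 0.203 CPM by library at 3 counts (CPM, a gene's count scaled to the library's total count), for counting error only. Of the other 3 of the 5 junctions with the longest flanking domains, those on chromosomes 5 and 11 had no gene running past both edges, and on chromosome 19 only the H3K9me3 edge fell inside ZNF536, near the end of the gene.

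The doubly marked length fell into 594 segments with a median of 85 kb. Staggered overlaps, with each mark running on at its own end, made up 434 segments and 49.7 Mb. H3K9me3 domains wholly inside H3K27me3 gave 142 segments and 34.5 Mb, and the reverse gave 18 segments and 5.17 Mb. Lamin B1 covered 82.6% and H3K9me2 75.9% of the doubly marked length, close to their 84.3% and 84.5% over H3K9me3 alone and above their 42.7% and 20.2% over H3K27me3 alone. Segments of at least 500 kb numbered 34 and held 31.3% of the length.

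The 5 longest segments held few genes, apart from the first. The segment at chr7:41670001-42790000 (1120 kb) held INHBA, the activin A subunit, and GLI3, a Hedgehog transcription factor. The one at chr2:66100001-67205000 (1105 kb) held MEIS1, a homeobox cofactor of HOX proteins. The one at chr1:56970001-58015000 (1045 kb) lay over DAB1, a Reelin adaptor whose 1552 kb body was 65.7% under H3K9me3 and 96.3% under H3K27me3. The segment at chr3:116795001-117875000 (1080 kb) held no protein-coding gene. All 4 lay wholly within lamin B1 and H3K9me2 domains. Control CPM was 0 in all 4 libraries for GLI3 and MEIS1, between 0.068 and 0.24 for INHBA, and between 0 and 0.13 for DAB1.

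The longest segment of all was of another kind. It spanned 1815 kb at chr1:143775001-145590000, with lamin B1 over 11.02% and H3K9me2 over 0.55% of it, and held 12 protein-coding genes, among them FAM72C, PPIAL4E and NBPF15 of primate-expanded multicopy families. NBPF15 was expressed, at 34.6, 36.1, 39.2 and 41.0 CPM in the 4 control libraries; reads from near-identical copies can be assigned to the wrong member, and this was not tested. A separate group of 117 segments (12.2 Mb, 13.6% of the doubly marked length) had less than 10% of both lamin B1 and H3K9me2. At 11.02% lamin B1 the longest segment just missed this limit, so it and its genes are counted with the other segments below. The following values are for the 117 segments. These carried 6.24 protein-coding genes per Mb, against 2.51 in the other segments, and 19 of their 69 genes with counts were detected at a mean of 1 CPM, against 12 of 174. Chromosomes 1, 17 and 22 held 35.8% of the length of these 117 segments and 19.9% of the length of the others.

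The longest domains of each mark differed in gene content. The widest H3K9me3 domain, chr5:17280001-31245000 (13965 kb), lay wholly within lamin B1, held 2.29% H3K27me3 and 21 protein-coding genes; the first 5 in coordinate order, H3Y2 and TAF11L2 to TAF11L5, sit in a doubly marked stretch of small multicopy genes. The same domain holds the neuronal cadherins CDH12 and CDH18. The domain at chr4:57265001-67320000 (10055 kb) held 4 genes, among them ADGRL3 and EPHA5, a latrophilin and an ephrin receptor of the nervous system. The domain at chr21:17960001-25420000 (7460 kb) held CHODL, TMPRSS15 and NCAM2, with 0.067% H3K27me3. On chromosome X the domain at 86210001 to 96330000 (10120 kb) held no H3K27me3 and 8 genes, with DACH2, KLHL4 and CPXCR1 first. The domain at chr13:79710001-91270000 (11560 kb) differed in having lamin B1 over only 20.5% of it, though H3K9me2 covered 93.2%; its first gene, SPRY2, an inhibitor of receptor tyrosine kinase signalling, was expressed at 12.3, 10.2, 13.2 and 10.9 CPM, while SLITRK1 in the same domain had no read.

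The longest H3K27me3 domains lay partly over H3K9me3. The longest, at chrY:1-2820000 (2820 kb), covers the end of chromosome Y that shares its sequence with chromosome X, so its reads cannot be placed on either with certainty. The next 4 had 31.4% to 64.7% of their length under H3K9me3. Within chr1:55815001-58490000 (2675 kb, 39.1% H3K9me3), PLPP3, a lipid phosphatase, and PRKAA2, an AMP-activated kinase subunit, were covered by H3K27me3 alone and expressed at a mean of 5.15 ± 0.80 and 9.44 ± 2.46 CPM (SD, n = 4). FYB2, C8A and C8B in the same domain had no read. Within chr2:65600001-68125000 (2525 kb, 43.8% H3K9me3) ETAA1 and C1D, outside the H3K9me3 part, were expressed at 23.0 ± 2.28 and 23.6 ± 5.50 CPM, whereas MEIS1, inside it, had no read. The domain at chr6:70865001-73225000 (2360 kb) held RIMS1, 71.3% under H3K9me3 and with no read, next to OGFRL1, with no H3K9me3 and 45.5 ± 4.54 CPM. Absence of H3K9me3 did not go with expression throughout that domain: KCNQ5, also free of it, had no read, and B3GAT2 was at 1.08 ± 0.19 CPM. Lamin B1 differed between these genes too. It covered 0% of PLPP3, ETAA1, C1D and OGFRL1, 51.9% of B3GAT2, 91.5% of KCNQ5 and 100% of MEIS1 and RIMS1. PRKAA2, which was expressed, was also 100% under lamin B1. The parts of H3K9me3 and lamin B1 in these differences were not tested. The domain at chr3:115815001-118140000 (2325 kb) held LSAMP alone, a neuronal adhesion gene at 0.15 ± 0.11 CPM.

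Genes were sparse under H3K9me3. A gene was placed in a class when at least 50% of its body was under one mark, both, or neither. Of 20037 protein-coding genes with a RefSeq position, 1171 (5.84%) were under H3K9me3 alone, 3817 (19.05%) under H3K27me3 alone, 280 (1.40%) under both and 14769 under neither. Per Mb of class length this was 2.06 genes for H3K9me3 alone, 5.21 for H3K27me3 alone, 3.13 for both marks and 8.69 for neither. Gene bodies filled 25.6%, 38.8%, 33.4% and 48.3% of these classes. Pseudogenes differed less, at 4.24, 4.98, 5.15 and 5.34 per Mb. Within the H3K9me3 list, density fell with width, from 5.21 genes per Mb in domains under 200 kb to 1.42 in those of at least 1 Mb.

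Gene families divided between the marks in distinct ways. Counts are set beside the shares of all protein-coding genes given above, 5.84% under H3K9me3 alone and 19.05% under H3K27me3 alone, as a description. H3K9me3 alone held 262 of 477 zinc finger genes named ZNF (54.9%), DNA-binding proteins of which many silence transposable elements. On chromosome 19 it held 188 of 240 and elsewhere 74 of 237. ZNF420 and ZNF678 lay wholly under it, whereas 27 ZNF genes were under H3K27me3 alone, among them the long developmental genes ZNF536, ZNF423 and ZNF521. It also held 65 of 94 keratin-associated proteins of hair, while 28 were under H3K27me3 alone and 1, KRTAP11-1, under both. Of the 53 clustered protocadherins, neuronal adhesion genes of which the alpha and gamma clusters share constant exons, 35 were under H3K9me3 alone and 0 under H3K27me3. The PCDHB cluster on chromosome 5 was 95.6% under H3K9me3, the PCDHA cluster 63.6% and the PCDHG cluster 68.2%. Several PCDHA genes overlap and end at the same position, and the limit of 50% fell between them. PCDHA4 was 59.9% under H3K9me3, while PCDHA9, counted under neither mark, was at 49.8%.

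H3K27me3 alone held 73 of 121 developmental transcription factors outside the HOX clusters (60.3%), with PAX5, PAX7, TBX15 and PAX3 as the longest. Another 6 were under H3K9me3 alone, among them the homeobox genes IRX1 and IRX2 and the SOX family gene SOX11, and PAX1 was under both marks. All 6 lay within lamin B1 and had no read in control cells. HOX genes, which set position along the body axis, split by cluster: the HOXC cluster on chromosome 12 was wholly under H3K27me3, the HOXB cluster for 16.9% with HOXB13 the one gene in the class, and HOXA and HOXD for 0%. None of the 39 HOX genes was under H3K9me3. A domain of the list is never narrower than 95 kb, so a shorter run of H3K27me3 would not appear in it. Voltage-gated potassium channels leaned the same way (19 of 35 under H3K27me3 alone against 3). UDP glucuronosyltransferases, enzymes that conjugate drugs and bilirubin (11 of 21 against 0), split by subfamily. All of the 11 but UGT3A1 and UGT3A2 were UGT1A genes, the longest of which overlap and end at the same position on chromosome 2. The 10 under neither mark were all UGT2A or UGT2B genes.

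Some families were shared out between the marks. Of 390 olfactory receptors, 111 were under H3K9me3 alone, 190 under H3K27me3 alone and 35 under both, so 336 lay under at least one; of those with counts, 0 reached a mean of 1 CPM in the 3 marked classes. Cadherins, calcium-dependent adhesion proteins, were 9, 7 and 1 of 23. The 9 under H3K9me3 alone were CDH7 to CDH13, CDH18 and CDH19, all within lamin B1 and all without a read, while the epithelial CDH1 and CDH3 were under neither mark. MAGE cancer-testis genes split by subfamily: the 9 under H3K27me3 alone were all MAGEA genes and the 6 under H3K9me3 alone were MAGEB and MAGEC genes. All 69 replication-dependent histone genes and 80 of 86 cytosolic ribosomal protein genes were under neither mark, as were 20 of 22 H3K9 methylation genes and 32 of 35 Polycomb genes. The remaining lists were bitter taste receptors (2, 4 and 1 of 25 under H3K9me3 alone, H3K27me3 alone and both), GABA, glutamate and nicotinic receptors (11, 19 and 1 of 60), WNT, BMP and FGF ligands (4, 17 and 0 of 52) and type I interferons (0, 4 and 0 of 17).

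**Figure D4:**
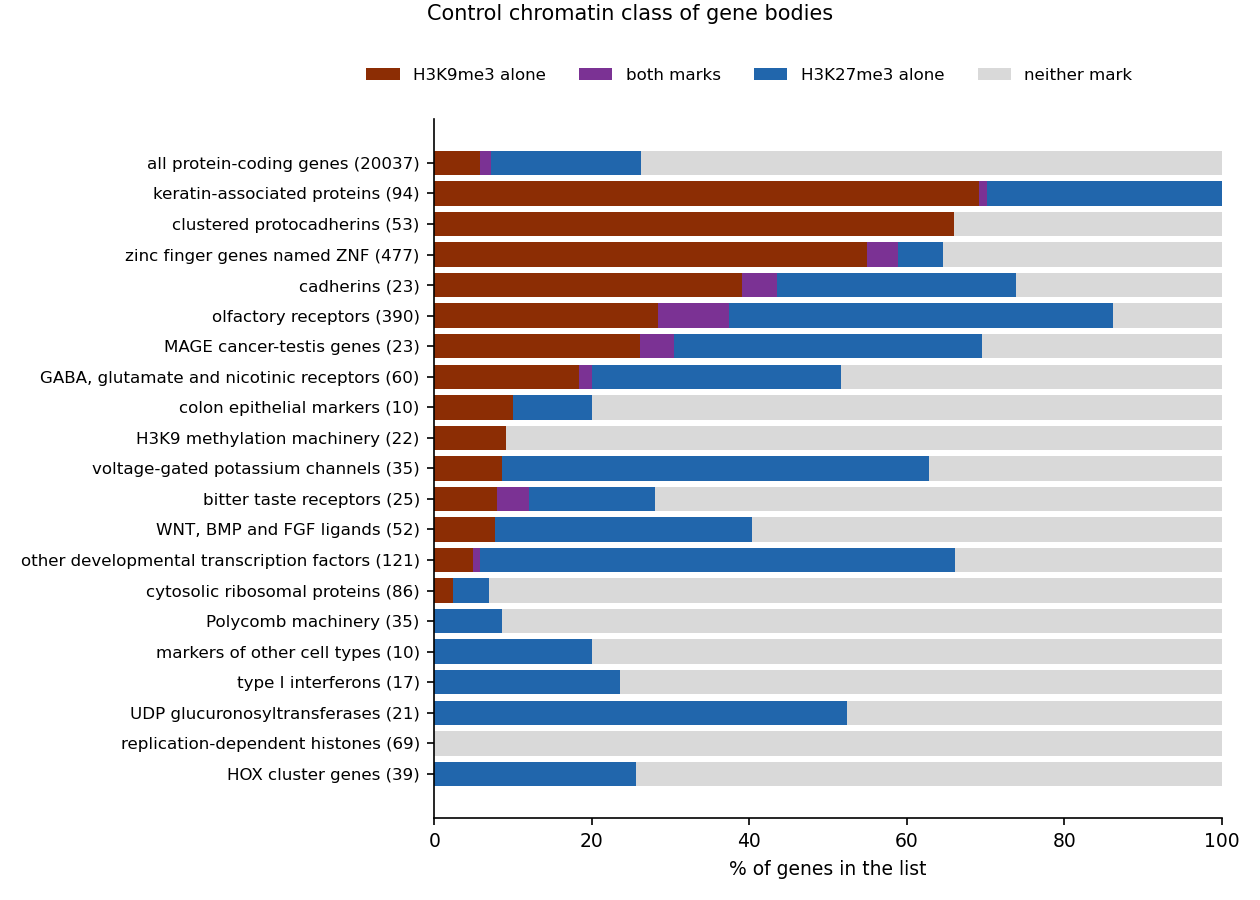
Percent of the protein-coding genes of each list (x axis; number of genes in parentheses) whose body lay under H3K9me3 alone (brown), both marks (purple), H3K27me3 alone (blue) or neither (grey) in control cells, with all 20037 genes in the top bar. Keratin-associated, protocadherin and ZNF genes have the largest H3K9me3 shares (69.1%, 66.0% and 54.9%), and developmental transcription factors the largest share under H3K27me3 alone (60.3%).

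Promoters differed less between the marks than between marked and unmarked genes. A promoter was called rich in CpG when its observed to expected CG ratio was at least 0.6, which holds for 65.6% of the 15843 protein-coding promoters matched (79.1% of genes, none on chromosome 8). The share was 49.0% of 987 promoters that start under H3K9me3 alone and 45.5% of 3031 under H3K27me3 alone, a difference of 3.51 percentage points whose 95% interval runs from -0.079 to 7.10. It was 35.1% of 225 promoters under both marks and 72.8% of 11600 under neither. Gene families were unlike, taken over all members of each list, marked or not. Of ZNF promoters 79.3% were rich in CpG, as in the ZNF583 window printed above, and of those of the developmental transcription factors 87.8%. For olfactory receptor promoters the share was 2.24%, as in OR4C13. Without olfactory receptors the shares by class, in the order given above, were 53.9%, 48.0%, 39.5% and 73.0%.

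Expression was low under both marks, and the share detected over all genes of a class was lowest where they coincided. The 4 control RNA libraries held 14810376 to 23633851 counts, and a gene was called detected at a mean of at least 1 CPM. CPM is not scaled for gene length, so it is used for detection and within a gene. The share of protein-coding genes at 1 CPM or more, as mean ± SD over the 4 libraries, was 26.1 ± 0.22% for H3K9me3 alone, 26.4 ± 0.75% for H3K27me3 alone, 12.4 ± 0.38% for both marks and 74.6 ± 0.33% for neither. The difference between the 2 singly marked classes ran from -0.36 to 0.79 percentage points by library, within its spread of 0.55 (SD, n = 4). The values for both marks lay below those of either mark in every library, by more than the spread. Genes with no read in any control library made up 58.9% of the H3K9me3 class, 39.8% of the H3K27me3 class and 59.7% of the doubly marked class, against 9.03% of the unmarked class. The label of the cells fits an epithelial line in part: EPCAM (252 ± 2.74 CPM), KRT8 (1174 ± 75.3) and 4 more of 10 colon epithelial markers were detected, CDX1 (under H3K27me3) and KRT20 (under H3K9me3) had no read, and of 10 markers of other cell types COL1A1 (61.0 ± 14.2), CD68 (21.6 ± 3.01) and DES (8.92 ± 2.85) were detected.

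Detection within the H3K9me3 class differed by lamin B1 coverage and by gene family. Of its 737 genes with counts and lamin B1 over at least 50% of the body, 14.1% were detected; without such lamin B1 it was 51.3% of 351. Detection was lower with lamin B1 among zinc finger genes and among the others. Within lamin B1, 80 of 179 ZNF genes were detected and 4.30% of the 558 other genes, and outside lamin B1 the values were 73 of 83 and 39.9% of 268. For H3K27me3 alone, detection was 110 of 846 genes with lamin B1 and 840 of 2781 (30.2%) without. Under both marks it was 9 of 161 genes with lamin B1 and 23 of 92 without. Among genes other than ZNF, the doubly marked class had 5.81% of 155 detected with lamin B1 and 18.75% of 80 without. Within lamin B1, the doubly marked genes other than ZNF were thus not below the 4.30% of H3K9me3 alone. H3K9me3 over a whole body thus did not go with silence at every gene. RAN, the nuclear transport GTPase, was wholly under H3K9me3 at 855, 905, 769 and 741 CPM, PRDX6, a peroxiredoxin, at 321, 336, 291 and 288, and ZNF121 at 184, 194, 179 and 186. The genes with the highest CPM under H3K27me3 alone were PGK1, a glycolytic kinase (1113 ± 61.6), GNAS, a G protein subunit that is imprinted (772 ± 16.3), and RPS19, a ribosomal protein (712 ± 41.7). Under both marks they were OAS3, an antiviral enzyme (87.6 ± 12.7), the corepressor CTBP1 (82.3 ± 16.1) and HLA-B (62.9 ± 17.4), whose reads can be shared with other HLA class I genes. OAS3 and CTBP1 had 52.48% and 52.31% of the body under H3K9me3, just past the limit of 50%. GNAS had 56.3% of the body under H3K27me3. The bodies of RAN, PRDX6 and ZNF121 are shorter than the narrowest H3K9me3 domain (65 kb). Those of PGK1, RPS19 and HLA-B are shorter than the narrowest H3K27me3 domain (95 kb). Whether the marks lie on these short genes or beside them cannot be told from the lists.

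**Figure D5:**
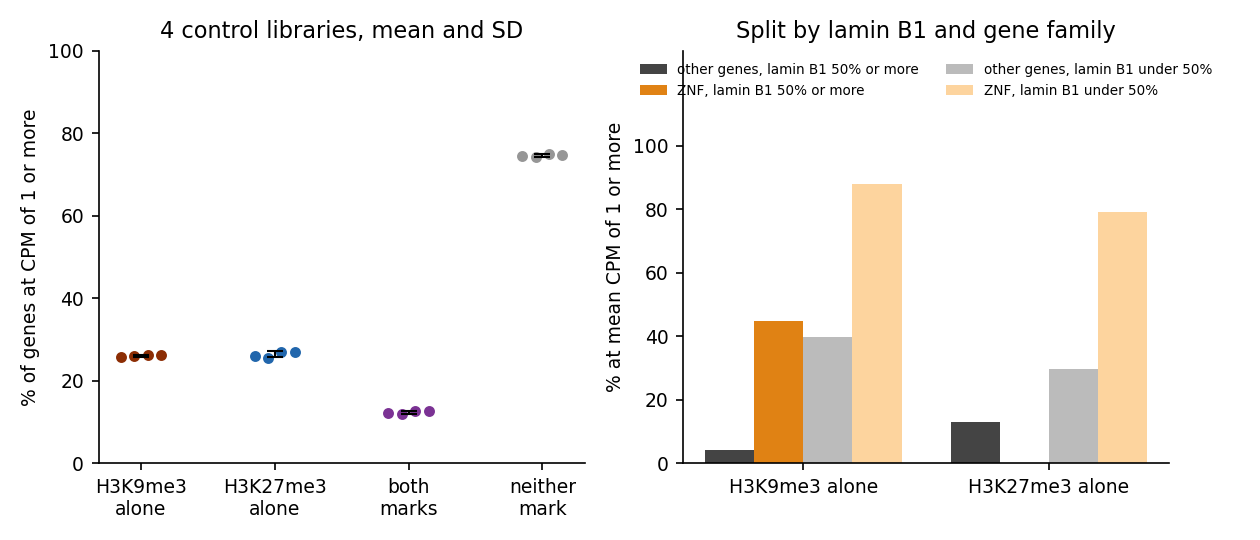
Left, percent of protein-coding genes at 1 CPM or more (y axis) in each chromatin class (x axis), a point for each of the 4 control libraries with mean and SD; the doubly marked class sits at about 12.4% in all 4. Right, percent detected among ZNF and other genes of the 2 singly marked classes, split by lamin B1 over at least 50% of the body; the bar for ZNF genes under H3K27me3 with lamin B1 is at 0 and stands for 0 of 3 genes.

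After HNRNPK siRNA the marks overlapped more. HNRNPK itself fell from 942, 980, 833 and 828 CPM to 249, 222, 154 and 159 CPM (log2 change -2.18, SE 0.061, adjusted p 2.69e-15, edgeR quasi-likelihood test), without overlap between the groups. The deposited lists for these cells shared 138.4 Mb against 89.5 Mb in control cells, with an overlap ratio of 0.68 against 0.51, and the ratio was higher on 24 of 24 chromosomes, as the plot by chromosome shows. Of the 138.4 Mb, 81.3 Mb was doubly marked in control cells already, 51.2 Mb had been under H3K27me3 alone and 5.36 Mb under H3K9me3 alone. The H3K9me3 list also grew, to 1996 domains and 794.4 Mb, while the H3K27me3 list held 1686 domains and 791.1 Mb. The H3K27me3 rim remained, with 77.6% of positions covered at 2.5 kb outside the edges of H3K9me3 domains of at least 1 Mb, against 72.9% in control cells. Inside these edges coverage was higher than in control cells, at 48.7% against 41.6% at 52.5 kb and 34.0% against 25.3% at 97.5 kb. At 247.5 kb outside it was lower, at 47.4% against 52.1%. After the siRNA, lamin B1 covered 96.5% of its control length in the H3K9me3 class and 92.9% in the doubly marked class. It covered 36.2% in the H3K27me3 class and 21.3% in the class under neither mark, so the lower value was not particular to H3K27me3. There is 1 list per condition, so these differences have no replicate check.

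Among marked genes that passed the low-count filter, more were called higher than lower. Of 14237 genes tested, 71.2% passed an adjusted p of 0.05 in edgeR's quasi-likelihood test with library kit as a term, 34.9% higher and 36.4% lower after HNRNPK siRNA. In the H3K9me3 class 180 of 368 genes were higher (48.9%) and 64 lower. In the H3K27me3 class 568 of 1392 were higher (40.8%) and 343 lower, and in the doubly marked class 23 of 51 were higher (45.1%) and 9 lower. The median log2 change was 0.28, 0.16 and 0.35 in these classes, against -0.011 over all genes tested. Marked genes were also less abundant, with a median log2 CPM of 3.32, 2.19 and 2.51 against 4.65 over all genes, and the part of this in the counts was not tested. Genes under the filter on low counts did not enter the test, so these counts describe the genes of each class with enough reads. The filter used all 8 libraries, so a gene with no control read could enter only through its siRNA reads and then only rise. Genes with no control read were more frequent in the marked classes, and their part in the excess of rises was not tested.

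The genes with the largest changes came from several functions. Under H3K9me3 alone ZNF192P1, a zinc finger pseudogene, rose from 1.91 to 2.84 CPM over the control libraries to 14.9 to 19.7 (log2 change 2.88, SE 0.12, adjusted p 1.45e-13, edgeR). KLRD1, a receptor subunit of natural killer cells, rose by 2.80 on the log2 scale and the readthrough gene ZNF8-ERVK3-1 by 2.79. LONRF2, a RING finger protein, fell from a control mean of 25.2 CPM to 4.09 CPM (log2 change -2.59, SE 0.14). FN3K, a deglycating kinase, fell from a mean of 6.12 CPM to 1.27 CPM. WWC3 had a log2 change of -2.07. Under H3K27me3 alone VWA2 rose from 0 to 0.18 CPM in the control libraries to 3.72 to 5.92 (log2 change 6.13, SE 0.41, adjusted p 1.09e-10, edgeR), followed by FGD5 and the sialyltransferase ST8SIA5. The clotting factor gene F10, NUDT7 and FAM71E1 fell most in that class, with log2 changes of -2.99, -2.89 and -2.81. The folds of VWA2 and FGD5 rest on 0 to a few control reads per library, so their size is uncertain. Under both marks CYP2E1, a cytochrome P450, rose by 2.55, the retinol dehydrogenase RDH16 by 2.37 and the teneurin TENM3 by 1.92, while LINC01145, CTBP1 and LINC00342 had log2 changes of -2.14, -1.08 and -0.95. For every gene named here the 4 control and 4 siRNA libraries did not overlap, as the naming rule requires.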

How the data were processed

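Domain lists for chromatin immunoprecipitation and gene counts for RNA were used as deposited. The authors deposited each domain with its edges, its width and a score whose scale is not given in the sources used here, nor are the domain caller, the use of input libraries or the pooling of replicates. Per the submitters' processing notes, the tools were bcl2fastq 2.20, fastp 0.23.2, Bowtie2 2.5.1 and deepTools 3.1.3 on hg38, and STAR 2.7.1a with featureCounts (Subread 2.0.6) for RNA. The deposited RNA values are whole-number counts per gene; whether strand was used in counting is not given in the sources used here. Edges lie on a grid of 5 kb except at chromosome ends.

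Overlaps, edges and profiles were computed on the deposited coordinates with Python 3.11.15, numpy 2.4.6, pandas 2.3.3 and scipy 1.17.1, with the whole assembled length of 3088.3 Mb, gaps included, as the genome. Of 28278 names in the count table, 26987 were matched to RefSeq GRCh38.p14 by symbol and 620 by synonym, and 27605 received a class. A further 715 protein-coding genes on chromosome 8 have no promoter window used here. CPM was computed as a gene's count scaled to the library's total count, without gene lengths. HNRNPK siRNA was tested with edgeR 4.0.16 in R 4.3.3 (limma 3.58.1; TMM, low-count filter, quasi-likelihood test, kit and treatment as terms, Benjamini-Hochberg adjustment at 0.05), and the fit was tested on simulated data. DESeq2 1.42.0 was an alternative. The 2 scramble siRNA libraries were left out because their purification kit and count table differ from those of the other RNA libraries.

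The comparison, gene lists and width classes were chosen with earlier results of these data known. Named were the 5 longest domains and segments of each kind with up to 5 genes in coordinate order, up to 4 list members per class, the gene across each of the 5 junctions with the longest flanks, and, per class, the 3 genes with the highest control CPM and the 3 with the largest rise and fall among those past the threshold, at a log2 CPM of at least 1, whose 8 libraries separate completely. Other members of short lists were named after their values were seen.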

Additional observations from a re-analysis of the deposited data

Results flagged for a closer look

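A pair of genes had 1 control library apart from the other control libraries by Dixon's criterion for 4 values, out of 77 groups of 4 tested. Chance alone flags about 1 in 20 groups. KLRD1, under H3K9me3 alone, was at 0.717 CPM in control replicate 1 and at 1.28 to 1.39 in the others. SPIB, a transcription factor gene under neither mark, was at 0.0598 CPM in control replicate 1 and at 0.446 to 0.473 in the others.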

How the results depend on the processing

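Of 162 alternative values, 116 stayed within the limits set for each result and 46 moved. The limits were counting intervals with domains, edges or genes as units, the spread between libraries for detection, or a set fold for call counts. Some outcomes were fixed in advance. A width limit of 10 kb removed no domain, so its values equal the main ones. Other distances and shares of whole domains measure another quantity than the main value. The 2 totals are thus no measure of stability. A change of sign was not scored apart from these labels. Keeping domains at or above the median score of their own list moved most domain results: 6.88% of H3K9me3 and 7.08% of H3K27me3 length was shared, the overlap ratio was 0.373, 8.27% of H3K9me3 edges lay within 25 kb of an H3K27me3 edge, the median widths were 742.5 and 520.0 kb, and 50.5% of the edges of broad H3K9me3 domains were crossed. With domains of at least 100 kb, 13.7% of H3K9me3 edges lay within 25 kb and the median width was 440.0 kb. Other distances gave 3.81% (5 kb), 5.88% (10 kb), 20.3% (50 kb) and 31.6% (100 kb). The crossed share was 76.7% on autosomes and 65.4% for domains of at least 2 Mb; all alternatives for this share, the score limit included, were chosen after seeing the data. Counting whole domains, 34.3% of H3K9me3 and 25.0% of H3K27me3 domains were shared at 10% overlap, and 23.4% and 5.87% at 50%. The difference in detection (H3K27me3 minus H3K9me3, 0.0895 percentage points) became -1.15 at 80% of the body, 3.31 at 0.5 CPM and -2.70 at 5 CPM, and the difference in promoters rich in CpG became -0.924 under a stricter definition, so neither sign is settled. The cause of these shifts was not tested.

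Without the filter on low counts 59 of 211 genes under both marks were called, against 32 of 51 with it. Leaving out each RNA library gave 235 to 248 calls for H3K9me3 alone, 898 to 930 for H3K27me3 alone, 29 to 36 for both marks and 8518 to 8831 for neither, and a detection difference of -0.159 to 0.430. A fit with the replicate block in place of kit called 246, 944, 32 and 8865. Libraries of the same number correlated at 0.0999 to 0.402, not all above 0.1, and 5 of 8 libraries correlated best with their own number, so the numbers are not shown to pair the samples. The domain lists have no replicates and their read depth is unknown; domains narrower than 65 kb (H3K9me3) or 95 kb (H3K27me3) cannot be seen.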
